A study of Mus musculus with 23 samples.

Results

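Of the 173430 genomic fragments in the deposited table, 769 were listed with an IAP element. They were taken as the fragments of autosomes 1 to 19 with a length of 21 bp to under 2000 bp that were not marked as containing a CpG island, that had the repeat class LTR and an element name starting with IAP. Of these, 699 had an internal element name (internal members) and 70 an LTR name (LTR members), and 33929 fragments of any kind met the same limits on chromosome, length and island. The rule itself uses no measured level, but it was chosen with earlier results of these data known.

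Intracisternal A particle (IAP) elements are endogenous retroviruses of the mouse. A full copy holds an internal part with the genes for the particle's own proteins and enzymes, between a pair of long terminal repeats (LTRs) that carry the promoter and the end of the transcript. IAPs are known as repeats whose CpGs stay heavily methylated in most mouse cells, and as insertions whose presence differs between inbred strains. IAPEz is the name of the internal part of the young, still mobile group, and the IAPEY and IAPLTR3 and IAPLTR4 names belong to related and older groups.

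Methylation was measured by AIMS-seq, which reads the DNA between consecutive CCCGGG sites. SmaI cuts only unmethylated sites, to blunt ends. XmaI is added next and opens the methylated ones with an overhang to which adaptors are joined, so that a fragment gives reads when the sites at both its ends are methylated. Levels are in rpm, the reads of a fragment scaled to a library total of 1000000. A site that is unmethylated, a site changed in sequence and a copy absent from the genome all give no reads and cannot be told apart, and read number also depends on fragment length through the PCR.

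The 23 libraries formed 9 groups. Skeletal muscle had 3 libraries, of which muscle 1 and muscle 2 were 129Sv/C57BL/6J and muscle 3 was C57BL/6J. Muscle precursors isolated 3 days after cardiotoxin injury and freshly isolated uninjured precursors had 1 library each. Cultured primary myoblasts had 2 libraries at passage 0 (cultures 26 and 27) and 3 at passages 8 to 10 (cultures 21, 27 and 26, called proliferating myoblasts here), and these later cultures were also sampled as myotubes after 1, 2 and 4 days in differentiation medium with 3 libraries at each time. Myoblasts grew in Ham's F-10 with fetal bovine serum and bFGF, and differentiation medium was DMEM with horse serum. Precursors, myoblasts and myotubes were all C57BL/6J. Muscle was whole tissue, in which other methylation within cells and another makeup of cells cannot be told apart. Embryonic stem (ES) cells were the lines CGR8 (129Sv), RD1 (129X1/SvJ) and E14Tg2 (129/Ola). The labels give all samples as male except E14Tg2, which has no entry. A repeat library of CGR8 was added to the first, which left 22 independent samples and n = 3 ES cell lines. No ES cell line is C57BL/6J, and no cultured muscle cell is of a 129 strain, so strain and cell type cannot be told apart between them. The genome build mm9, from which all coordinates and sequences here come, is that of C57BL/6J.

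The fragments fell into very unequal sets. IAPEz internal fragments made up 499 of the 769 members, and 362 of these were under 100 bp long. These 362 come from stretches in which a short unit is repeated and CCCGGG sites lie close together. They are shown because they are 362 of the 769 members and hold almost none of the reads. CpGs are in capitals, and the sequences run along the element, from the GGG of one site to the CCC of the next.

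IAPEz, 30 bp, chr5:100242911-100242940, minus strand: gggaCGagaaatcctgggaCGagaaaaccc
IAPEz, 45 bp, chr7:108717067-108717111, plus strand: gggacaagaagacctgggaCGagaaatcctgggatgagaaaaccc
IAPEz, 60 bp, chr14:24354681-24354740, plus strand: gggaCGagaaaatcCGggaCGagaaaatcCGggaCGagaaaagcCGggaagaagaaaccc

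There were 187 IAPEz fragments of 30 bp with 61 distinct sequences, 49 of 45 bp, 23 of 47 bp and 16 of 60 bp. The 10 letters GGGACGAGAA, on either strand, occurred in 94.2% of the 362 short IAPEz fragments and in 56.2% of the 137 longer ones. They occurred in 0 of the 270 other IAP members, in 5.99% of the 7618 fragments under 100 bp that met the same limits, and in 1.67% of all 33929. The 362 short fragments held 965 reads over the 23 libraries, and 254 of them had no read.

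The fragments with most reads were older copies. The sequences below are the first 60 bases of the 2 IAPLTR4_I internal fragments with the highest mean level of all members, each 394 bp long and listed with the element over 35.0% of its length. The 2 stretches are identical, although the copies lie on different chromosomes.

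IAPLTR4_I, chr10:32726833-32726892, plus strand: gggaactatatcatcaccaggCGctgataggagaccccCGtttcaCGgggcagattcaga
IAPLTR4_I, chr2:89521387-89521446, minus strand: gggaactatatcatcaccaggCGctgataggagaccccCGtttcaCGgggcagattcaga

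Their last 60 bases differ at 2 positions. Between 390 and 400 bp there were 6 such IAPLTR4_I fragments, with pairwise identities of 95.7% to 97.5% (median 96.5%), and they held 15.3% of all IAP reads. Whether a read that matches several copies was placed at one of them, shared or dropped is not given in the sources used here, so the split of reads between near-identical copies is uncertain.

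Another set is shown because its copies differed in level although their sequences are alike. These are the last 60 bases of 3 IAPEY3_LTR fragments of 210 bp, from the downstream end of the LTR.

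IAPEY3_LTR, chr8:4944200-4944259, plus strand: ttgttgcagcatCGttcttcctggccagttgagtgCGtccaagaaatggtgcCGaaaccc
IAPEY3_LTR, chr12:19647492-19647551, minus strand: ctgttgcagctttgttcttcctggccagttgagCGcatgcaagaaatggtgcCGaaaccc
IAPEY3_LTR, chr12:17864025-17864084, plus strand: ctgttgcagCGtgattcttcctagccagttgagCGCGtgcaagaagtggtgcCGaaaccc

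The chr8 stretch differs from that of chr12:17864025 at 8 of the 60 bases and from that of chr12:19647492 at 6, and the chr12 stretches differ from each other at 6. The closing bases resemble the primer binding site, the stretch behind the LTR where reverse transcription of IAPs starts from a phenylalanine tRNA. The letters TGGTGCNGANACCC, which the chr12:17863875-17864084 fragment shares with an IAPEz fragment on chromosome 14, stood at an end of 46 IAP members on either strand. That is 5.98% of the members and 10.3% of IAP reads, against 0.609% of the fragments outside IAP that met the same limits. Among IAPEz fragments these were 32 of 499, with 46.4% of the reads of that name.

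Library totals ran between 6237851 and 14696855 reads. IAP members held 2822437 reads over all libraries. Of the 769, 457 had a read in some library, 312 had none, and 448 had fewer than 23 reads over the 23 libraries. The 10 fragments of most reads held 25.4% of IAP reads, the top 20 held 40.8% and the top 50 held 67.1%. Fragments of 200 bp or longer were 376 of the members with 97.6% of the reads, while the 370 members under 100 bp held 0.0364%. Fragments of 2000 bp or longer, which are not members, took 1.98% to 6.37% of reads outside ES cells and 10.0% to 12.1% in the ES cell libraries, and the share of reads in CpG islands ranged between 0.421% and 4.98%. The 4 libraries with the highest island share were culture 27 at day 1 of differentiation (4.98%) and at day 4 (4.78%), muscle 2 (4.78%) and muscle 1 (3.55%). IAP levels in those 4 libraries were 9341, 9504, 7302 and 11019 rpm, and the part of this share in the IAP levels was not tested.

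**Figure D1:**
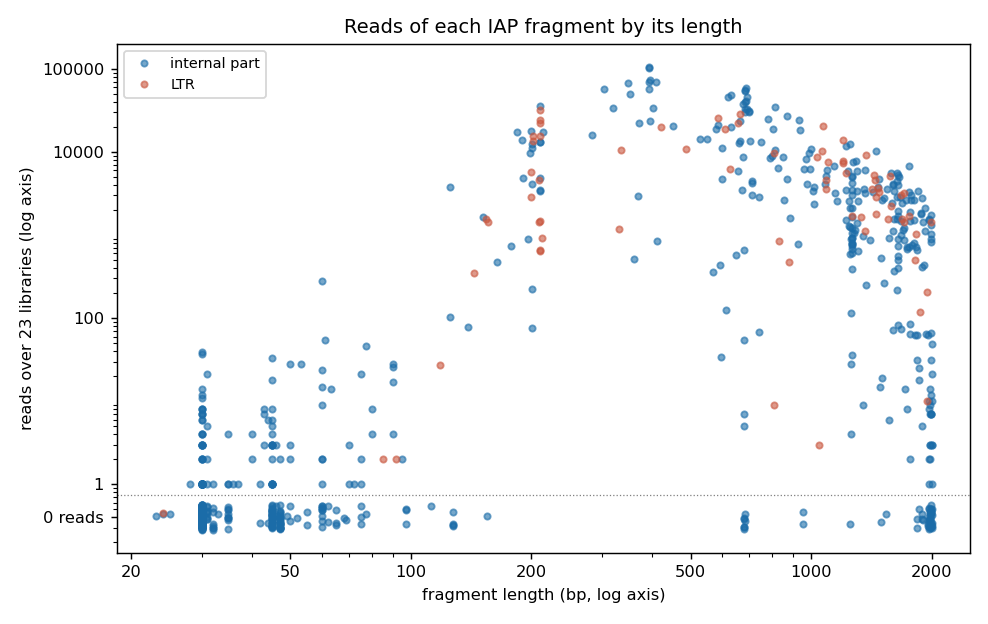
Reads over the 23 libraries (log axis, members with 0 reads drawn at the foot) against fragment length in bp for the 769 IAP members, internal and LTR members in separate colours. The 370 members under 100 bp held 0.0364% of the IAP reads and the 376 of 200 bp or longer held 97.6%.

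By name, IAPLTR4_I held 36.5% of IAP reads in 40 fragments, IAPEY3-int 21.7% in 59, IAPEY3_LTR 15.3% in 63 and IAPEz-int 10.0% in 499. IAPLTR3-int held 7.36% in 32 fragments, IAPEy-int 4.36% in 53 and IAP-d-int 4.08% in 16. The other 7 fragments, all LTR members, belonged to names with 1 to 3 fragments each. The label IAP rests on the listed element, and in 115 members that element covers less than 10% of the fragment. Most of such a fragment lies outside the listed element and can be flanking DNA or another element, since 267 members were listed with 2 or more elements. In GENCODE M1 on mm9, 632 members (82.2%) were intergenic, 119 (15.5%) lay in an intron, 7 overlapped an exon and 11 overlapped a promoter window, taken to reach 2000 bp before and 500 bp past a transcription start. None lay within 5000 bp of Cdk5rap1, a gene known to host a variably methylated IAP.

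Identical ends were common. In 401 members both of the 36-base end sequences occurred at another fragment end of the table too, and those members held 19.3% of IAP reads, while the 177 members with 2 single ends held 33.7%. The read length is not given in the sources used here. With 25 bases compared the number with 2 single ends was 86, and with 50 bases it was 260.

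Summed over all 769 members, the mean IAP level was lowest in ES cells and highest in passage 0 myoblasts, and most group ranges overlapped. Muscle had 11019, 7302 and 15718 rpm in muscle 1, 2 and 3, a wider spread than in any other group of 3. The precursors had 13366 rpm after injury and 11656 rpm freshly isolated. Passage 0 myoblasts had 12750 and 19607 rpm. Proliferating myoblasts had 12252, 13695 and 9532 rpm in cultures 21, 27 and 26. Myotubes averaged 11410 ± 1893 rpm at day 1, 14075 ± 891 rpm at day 2 and 11596 ± 2515 rpm at day 4 (SD, n = 3 each). ES cells had 8841, 9305 and 9736 rpm in CGR8, RD1 and E14Tg2. Day 2 myotubes, both precursor libraries and passage 0 myoblasts lay above all ES cell lines, whereas muscle, proliferating myoblasts, and day 1 and day 4 myotubes each had a library within or below the ES cell range. These sums carry no test because the few fragments of most reads set them.

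Most of this level came from internal members. They summed to 9314 ± 3697 rpm in muscle, 11043 rpm in precursors after injury, 9456 rpm in freshly isolated precursors, 13554 ± 4402 rpm in passage 0 myoblasts (SD, n = 2), 10040 ± 1814 rpm in proliferating myoblasts and 7470 ± 382 rpm in ES cells (SD, n = 3 where not stated). LTR members summed to 2032 ± 528 rpm in muscle, 2322 rpm in precursors after injury, 2199 rpm in freshly isolated precursors, 2625 ± 447 rpm in passage 0 myoblasts, 1786 ± 354 rpm in proliferating myoblasts and 1824 ± 113 rpm in ES cells. For LTR members the means of proliferating myoblasts and ES cells thus differed by less than the spread of either. Day 4 myotubes had 9856 ± 2371 rpm in internal and 1741 ± 207 rpm in LTR members.

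**Figure D2:**
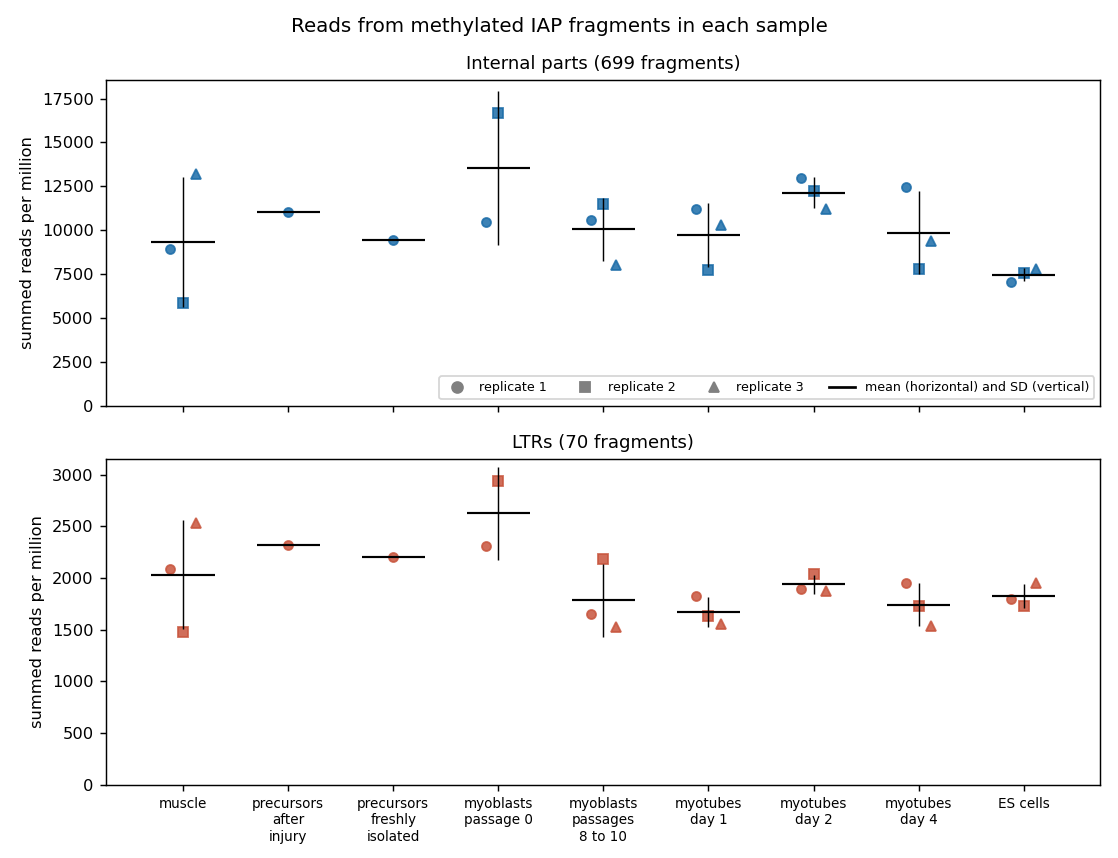
Summed rpm of the internal and of the LTR members in each of the 22 independent samples, by group, with the group mean as a bar. Internal members reach 16666 rpm in a passage 0 culture and lie between 7045 and 7787 rpm in the ES cell lines, and LTR members lie between 1480 and 2941 rpm in all samples.

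The element names did not follow one order. IAPLTR4_I averaged 4817 ± 1857 rpm in muscle, 5909 ± 2755 rpm in passage 0 myoblasts, 4214 ± 1052 rpm in proliferating myoblasts and 2733 ± 199 rpm in ES cells, and every sample outside ES cells lay above the highest ES cell line at 2856 rpm. IAPEY3-int averaged 1964 ± 784 rpm in muscle, 3803 ± 840 rpm in passage 0 myoblasts, 2555 ± 80.8 rpm in proliferating myoblasts and 2144 ± 269 rpm in ES cells. IAPEy-int and IAPLTR3-int had their lowest group means in muscle. IAPEy-int was at 205 ± 171 rpm in muscle, 748 rpm in precursors after injury, 466 rpm in freshly isolated precursors, 672 ± 236 rpm in proliferating myoblasts and 366 ± 104 rpm in ES cells. IAPLTR3-int was at 302 ± 192 rpm in muscle, 968 and 817 rpm in the 2 precursor libraries, 949 ± 216 rpm in proliferating myoblasts and 645 ± 19.5 rpm in ES cells. IAPEz-int reached 1533 ± 661 rpm in muscle, 1193 ± 259 rpm in proliferating myoblasts and 1148 ± 182 rpm in ES cells, ranges that overlapped. IAP-d-int stood at 493 ± 71.1 rpm in muscle, 770 ± 3.31 rpm in passage 0 myoblasts (SD, n = 2), 457 ± 12.4 rpm in proliferating myoblasts and 433 ± 50.1 rpm in ES cells.

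Beside other repeats, which met the same limits, the IAP level was small and its pattern was shared in part. The 703 fragments of MaLR and ERVL elements, older LTR repeats, averaged 41275 ± 1726 rpm in proliferating myoblasts and 38915 ± 848 rpm in ES cells. The 12528 L1Md fragments, the young LINE elements of the mouse, averaged 35151 ± 4752 rpm in proliferating myoblasts and 27463 ± 4495 rpm in ES cells. The 2384 fragments of other LTR elements averaged 107646 ± 7722 rpm in passage 0 myoblasts (SD, n = 2) and 87693 ± 8613 rpm in proliferating myoblasts. They averaged 67923 ± 22626 rpm in muscle and 75596 ± 4282 rpm in ES cells. Their highest group mean was thus in passage 0 myoblasts, as for IAP members, and their lowest was in muscle.

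The first comparison sets proliferating myoblasts against ES cells and asks where the muscle lineage in culture differs from pluripotent cells. Of the 769 members, 276 had enough reads to be tested, and 38 of them gave more and 8 gave fewer reads in proliferating myoblasts (edgeR's quasi-likelihood test, Benjamini-Hochberg adjusted p under 0.05 over all fragments tested). That is 13.8% higher and 2.90% lower, against 8.22% higher and 11.7% lower among all 25152 fragments tested. Members near 0 in one group passed the filter on low counts through the other, so these shares describe the tested members only. The median log2 change of the tested members was 0.50, and that of all fragments tested was −0.08. Scaling by library totals in place of TMM moved these to 0.27 and −0.29, so the distance of IAP members from all fragments was 0.58 and 0.56. That distance was 0.32 with only fragments of 21 bp to under 2000 bp in the fit and 0.87 without a filter on low counts. The number of lower members was less stable than that of higher ones, with 1, 2, 2 and 2 lower without CGR8, RD1, E14Tg2 or culture 26, and 3 to 12 under the other settings that kept all samples and members.

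Internal members made up most of the higher calls. They counted 32 higher and 3 lower of 214 tested with a median of 0.63, and LTR members counted 6 higher and 5 lower of 62. The LTR median was −0.16, and its sign depended on the libraries, with 0.11 without CGR8 and 0.27 without culture 26, both fits in which no LTR member was called lower. By name, IAPEy-int had 9 higher and 0 lower of 47 tested, IAPLTR3-int 7 and 0 of 32, IAPEz-int 8 and 1 of 50, IAPLTR4_I 3 and 0 of 31, and IAPEY3-int 4 and 1 of 43. IAPEY3_LTR was split, with 5 higher and 5 lower of 57. L1Md fragments had 431 higher and 42 lower of 1764 tested with a median of 0.81. MaLR and ERVL fragments had 61 higher and 67 lower of 577. Fragments of other LTR elements had 192 higher and 68 lower of 1353 (14.2% and 5.03%) with a median of 0.33. Their share of higher calls was thus near that of IAP members. All fragments that met the same limits had 1643 higher and 1325 lower of 14918, with a median of 0.12. Among fragments of 2000 bp or longer 17.5% were lower, with a median of −0.51.

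Of the 38 higher members, 28 were under 1 rpm in all 3 ES cell lines. These passed the filter on low counts through the myoblast libraries. The same share among all fragments called higher was not counted, so the number describes the called members only. The IAPEy-int fragment chr11:114834979-114835917 (939 bp, intergenic, the element covering 1.92% of it) had 147, 114 and 51.3 rpm in proliferating myoblasts, against 0.122, 0.0992 and 0.119 rpm in ES cells. It had 5 reads in all ES cell libraries together, no sample overlapped, and the ratio of levels was 943 with a 95% interval from counting of 404 to 2907 (log2 change 9.89, SE 0.80, edgeR adjusted p = 9.80e-05). Its ends, which at 36 bases occur nowhere else among the fragment ends of the table, are shown because no other fragment of the table shares them at that length.

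IAPEy-int first 60 bases, chr11:114834979-114835038, plus strand: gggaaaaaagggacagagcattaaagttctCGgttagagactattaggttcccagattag
IAPEy-int last 60 bases, chr11:114835858-114835917, plus strand: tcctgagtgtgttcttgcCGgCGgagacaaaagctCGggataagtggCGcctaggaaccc

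The IAPEz-int fragment chr14:71519716-71521355 (1640 bp, intergenic, 0.976% element) had 29.3, 31.6 and 23.4 rpm in proliferating myoblasts, against 0.163, 0.0992 and 0.119 rpm in ES cells (log2 change 7.75, SE 0.65, edgeR adjusted p = 0.000107). Its first end lies outside the listed element and its last end closes with the primer-binding-site letters.

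IAPEz-int first 60 bases, chr14:71519716-71519775, plus strand: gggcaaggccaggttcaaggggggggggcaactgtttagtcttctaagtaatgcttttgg
IAPEz-int last 60 bases, chr14:71521296-71521355, plus strand: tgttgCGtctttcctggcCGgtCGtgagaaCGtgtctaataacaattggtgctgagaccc

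Among LTR members, the IAPEY3_LTR fragment chr8:4944050-4944259 had 111, 133 and 109 rpm in proliferating myoblasts, against 1.27, 0.893 and 0 rpm in ES cells (log2 change 7.34, SE 0.98, edgeR adjusted p = 0.000613). The fragment chr12:19647492-19647701 had 3.62, 12.6 and 3.64 rpm in proliferating myoblasts, against 0.0408, 0.0992 and 0 rpm in ES cells (log2 change 6.85, SE 0.89, edgeR adjusted p = 0.000522). The remaining 210-bp copy printed above, chr12:17863875-17864084, had 162, 153 and 141 rpm in proliferating myoblasts, against 90.8, 37.1 and 84.5 rpm in ES cells. Its levels did not overlap either but did not pass the test (log2 change 1.29, SE 0.51, edgeR adjusted p = 0.11). So the chr8 copy was near 0 in ES cells and the chr12:17863875 copy was not, although the 2 fragments are 90.5% identical with 20 mismatches. The first 36 bases of the chr12:17863875 copy occur at 81 fragment ends of the table, and its last 36 at 1. For the chr12:19647492 copy these numbers are 81 and 3, so neither of its ends is single, and for the chr8 copy they are 1 and 1.

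Of 12 IAPEY3_LTR fragments of 202 to 213 bp, the copies on chr8:4944050 and chr12:19647492 were the only ones at 1.27 rpm or less in all ES cell lines. That limit is the highest ES cell level of the chr8:4944050 copy itself. The copy at chr3:10223317 had 117, 92.0 and 116 rpm in proliferating myoblasts, against 100.0, 81.0 and 89.2 rpm in ES cells. The copy at chr8:19529721 had 37.7, 104 and 49.3 rpm in proliferating myoblasts, against 51.6, 110 and 49.2 rpm in ES cells. These copies are 92.4% to 94.8% identical to those 2 fragments, and their levels overlapped between the cell types.

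The lower members were few. The IAP-d-int fragment chr12:18188246-18189996 (3.77% element) had 14.5, 27.6 and 9.76 rpm in proliferating myoblasts, against 94.1, 95.9 and 70.6 rpm in ES cells (log2 change −2.21, SE 0.48, edgeR adjusted p = 0.00959). Without CGR8 the adjusted p was 0.0608 and without culture 26 it was 0.0655. The IAPEz-int fragment chr7:15406605-15408369 (2.49% element) had 0.0906, 0.103 and 0.130 rpm in proliferating myoblasts, which is 3 reads in all, against 1.14, 2.08 and 2.99 rpm in ES cells. It was 16.3-fold lower with a 95% interval from counting of 5.37 to 80.9 (log2 change −3.90, SE 0.74, edgeR adjusted p = 0.00451). The IAPEY3_LTR fragment chr7:6565465-6566551 had 4.53, 17.4 and 4.03 rpm in proliferating myoblasts, against 39.1, 35.0 and 37.5 rpm in ES cells (log2 change −2.07, SE 0.56, edgeR adjusted p = 0.0276). The IAPEY3_LTR fragment chr14:10332569-10334127 (7.06% element) had 0.0906, 4.76 and 0.911 rpm in proliferating myoblasts, against 14.8, 14.7 and 21.7 rpm in ES cells (log2 change −3.17, SE 0.90, edgeR adjusted p = 0.0347). Culture 27 was the highest of the 3 cultures in both LTR fragments, and both calls were lost under several other settings, with adjusted p-values between 0.0524 and 0.229.

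**Figure D3:**
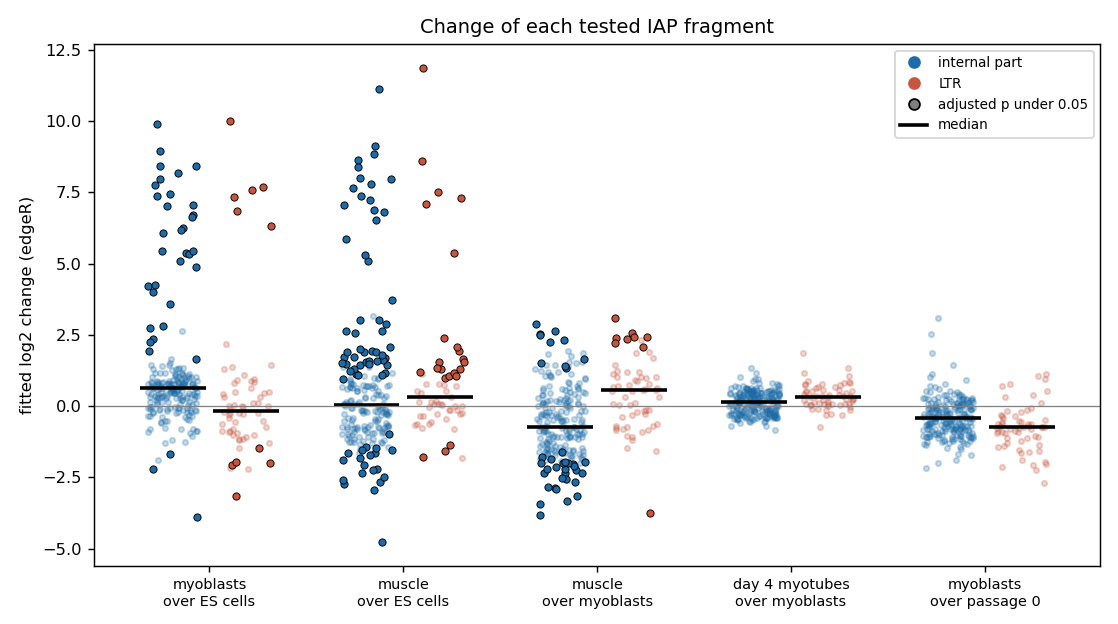
Fitted log2 change of each tested IAP member, internal and LTR members apart, in the 5 comparisons, with called members outlined and the median as a bar. Internal members have a median of 0.63 between proliferating myoblasts and ES cells and of −0.72 between muscle and proliferating myoblasts, and no member is called in the last 2 comparisons.

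The second comparison sets whole skeletal muscle against ES cells and asks how the mature tissue differs. Of 263 members tested, 71 gave more and 23 gave fewer reads in muscle (27% and 8.75%), against 24.4% higher and 34.6% lower among all 22980 fragments tested. The share of higher members was thus near that of all fragments, and the share of lower ones was below it. Among the 14569 tested fragments that met the same limits 31.3% were higher and 19.4% lower, with a median log2 change of 0.24. These shares were 30.1% and 17.7% for MaLR and ERVL fragments, 23.5% and 22.2% for other LTR elements, and 39.1% and 15.2% for L1Md fragments. The median log2 change was 0.09 for IAP members and −0.34 for all fragments tested. With library totals these became −0.69 and −1.17, with 42 members higher and 61 lower, so the direction of the IAP median depended on the scaling, and the lower share was 23.2% against 48.1% of all fragments. Among fragments of 2000 bp or longer 70.2% were lower in muscle. With only fragments of 21 bp to under 2000 bp in the fit 53 IAP members were higher (20.1%, against 25.9% of all) and 41 lower (15.5%, against 26.4%). The distance of the IAP median from that of all fragments, 0.43 with TMM, was −0.24 in that fit, so its sign depended on the long fragments being included, and it was 1.26 without a filter on low counts. Without muscle 3, the C57BL/6J animal, 71 were higher (26.4%, against 23.3% of all) and 57 lower (21.2%, against 37.2%).

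Internal members counted 51 higher and 20 lower of 204 tested, and LTR members 20 higher and 3 lower of 59. IAPLTR4_I had 18 higher and 3 lower of 32 tested, with a median of 1.29 that was still 0.51 with library totals. IAPEz-int had 17 higher and 3 lower of 49 with a median of 0.82, which was −0.02 with library totals. IAPEY3_LTR had 18 higher and 2 lower of 54, IAPEY3-int 8 higher and 7 lower of 44, and IAP-d-int 2 higher and 4 lower of 11. IAPEy-int had 3 higher and 1 lower of 39, and IAPLTR3-int 3 and 2 of 29. Without muscle 3 the lower calls were 14 in IAPEy-int and 12 in IAPLTR3-int.

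The IAPEY3_LTR fragment chr8:31121870-31122959 (1090 bp, intergenic, 10.1% element) had 27.8, 16.6 and 40.9 rpm in muscle and no read in any ES cell library. Set against a floor of 3 reads over the ES cell libraries, it was at least 413-fold higher in muscle (edgeR adjusted p = 1.96e-05). Its last 36 bases occur at 128 fragment ends and its first 36 at 1. The first 60 are shown because this was the member with the largest fitted change of the comparison.

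IAPEY3_LTR first 60 bases, chr8:31122900-31122959, minus strand: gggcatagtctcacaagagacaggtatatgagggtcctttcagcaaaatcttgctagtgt

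The IAPEz-int fragment chr17:50055636-50057101 (1466 bp, 1.09% element) had 13.9, 11.7 and 21.3 rpm in muscle, against 0.0816, 0 and 0 rpm in ES cells, which is 2 reads (log2 change 8.84, SE 0.74, edgeR adjusted p = 1.66e-05). Its ratio was 338 with a 95% interval from counting of 93.0 to 2797. The IAPEY3_LTR fragment chr7:70926384-70927417 had 58.9, 46.3 and 63.2 rpm in muscle, against 0.408, 0 and 0.119 rpm in ES cells (log2 change 8.62, SE 0.76, edgeR adjusted p = 2.16e-05). The IAPEy-int fragment on chr11 described above had 18.1, 12.9 and 48.8 rpm in muscle, against 0.122, 0.0992 and 0.119 rpm in ES cells (log2 change 8.38, SE 0.68, edgeR adjusted p = 1.48e-05). All 3 were near 0 in every ES cell line and present in every muscle library.

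In the other direction, the IAP-d-int fragment chr12:18188246-18189996 had 6.94, 5.13 and 13.4 rpm in muscle, against 94.1, 95.9 and 70.6 rpm in ES cells (log2 change −2.60, SE 0.41, edgeR adjusted p = 0.000622). The IAPEY3-int fragment chr13:27539191-27541089 had 0.277, 0.334 and 0.498 rpm in muscle, against 3.67, 5.26 and 6.57 rpm in ES cells (log2 change −2.95, SE 0.54, edgeR adjusted p = 0.00136). The IAPEY3_LTR fragment chr7:63617603-63618822 (8.52% element), in an intron of Oca2, had 6.75, 3.34 and 12 rpm in muscle, against 40.7, 38.9 and 50.6 rpm in ES cells (log2 change −1.79, SE 0.44, edgeR adjusted p = 0.00584). Oca2 encodes a melanosomal transporter needed for pigment. The IAPEY3_LTR fragment chr5:146503835-146505287 had 2.40, 1.45 and 6.47 rpm in muscle, against 11.5, 13.2 and 20.2 rpm in ES cells (log2 change −1.35, SE 0.52, edgeR adjusted p = 0.0465). With any 1 of the ES cell lines left out this adjusted p lay between 0.0604 and 0.149.

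Of the 3 internal and 3 LTR members of highest mean level in their part, 4 were higher in muscle than in ES cells by this test. The IAPLTR4_I fragment on chr2 (89521053 to 89521446) had 533, 375 and 548 rpm in muscle, against 341, 214 and 301 rpm in ES cells (log2 change 1.55, SE 0.37, edgeR adjusted p = 0.00555). Its near-identical copy on chr10 had 252, 157 and 380 rpm in muscle, against 294, 199 and 303 rpm in ES cells, which overlapped (log2 change 0.75, SE 0.38, edgeR adjusted p = 0.116). The 2 copies stood in the opposite order in freshly isolated precursors, with 338 rpm on chr10 and 207 rpm on chr2. The IAPEY3-int fragment chr3:9387391-9387738 had 151, 134 and 292 rpm in muscle, 306 rpm in precursors after injury, 431 rpm in freshly isolated precursors, and 171, 254 and 180 rpm in ES cells. It did not pass the test between muscle and ES cells (log2 change 0.71, SE 0.35, edgeR adjusted p = 0.108). The log2 changes were fitted after TMM scaling, whereas rpm are scaled to library totals. In rpm the means of this fragment (192 in muscle, 202 in ES cells) and of the chr10 copy (263 and 265) were not higher in muscle. After TMM scaling they were, with 253 against 154 and 347 against 207. The direction in these fragments thus depended on the scaling. The 3 LTR members of this set were all called higher, with log2 changes of 1.29 for chr3:113724070-113724732, 1.93 for chr12:17863875-17864084 and 7.30 for chr8:4944050-4944259. The first of them overlapped between the groups, with 145, 60.2 and 249 rpm in muscle, against 113, 87.7 and 109 rpm in ES cells, so that muscle 2 lay below every ES cell line. The means of that fragment were 152 rpm in muscle and 103 rpm in ES cells, and 197 and 80.3 after TMM scaling. Like it, the chr2, chr12 and chr8 fragments had higher means in muscle on both scales. In the chr3:113724070 fragment the listed element covers 2.87%.

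The third comparison sets muscle against proliferating myoblasts, the tissue against the cultured precursors of its fibres. Of 279 members tested, 18 gave more and 28 gave fewer reads in muscle (6.45% and 10.0%), against 13.7% higher and 17.4% lower among all 20274 fragments tested. Without a filter on low counts the shares were 4.51% higher and 2.51% lower, against 2.26% and 2.00% of all, so the order of IAP members and all fragments depended on the filter. The median log2 change was −0.41 for IAP members and −0.13 for all fragments, or −0.86 and −0.67 with library totals. Among the 14373 tested fragments that met the same limits 16.9% were higher and 11.2% lower, with a median of 0.12. The distance of the IAP median from that of all fragments, −0.28, was −0.59 with only fragments of 21 bp to under 2000 bp in the fit. It was 0.20 without a filter and 0.19 with all groups in one fit. Without muscle 1, muscle 2 or culture 21 it was 0.01, 0.09 and 0.04, so its sign was not stable. Every call of this comparison, in the whole table, was lost without muscle 1 and also without muscle 2, while without muscle 3 there were 15 higher and 49 lower IAP members (5.32% and 17.4%, against 13.7% and 16.0% of all fragments).

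Internal and LTR members had different counts, a difference that was not itself tested. Internal members counted 10 higher and 27 lower of 218 tested with a median of −0.72, and LTR members 8 higher and 1 lower of 61 with a median of 0.56. In the LTR members with 2 single ends the median was −0.28. IAPEy-int had 0 higher and 8 lower of 46 with a median of −1.55, IAPLTR3-int 0 and 4 of 32 with a median of −1.09, and IAPEY3-int 2 and 9 of 44. IAPEz-int had 5 higher and 2 lower of 53, IAPLTR4_I 2 and 0 of 32, and IAPEY3_LTR 7 and 1 of 56. Fragments of other LTR elements also leaned lower, with 99 higher and 246 lower of 1311 tested (7.55% and 18.8%) and a median of −0.53. L1Md fragments had 79 higher and 181 lower of 1704 with a median of −0.34, and MaLR and ERVL fragments 97 and 64 of 558 with a median of 0.09.

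Among the lower members, the IAPEY3-int fragment chr16:18975917-18976116 had 7.95, 7.58 and 15.3 rpm in muscle, against 90.5, 95.2 and 118 rpm in proliferating myoblasts (log2 change −2.84, SE 0.48, edgeR adjusted p = 0.0120). Its level was 74.3 rpm in precursors after injury, 121 rpm in freshly isolated precursors, and 54.2, 74.0 and 69.5 rpm in ES cells, and no sample of another group was as low as the 3 muscle libraries. The IAPEY3-int fragment chr13:27539191-27541089 had 0.277, 0.334 and 0.498 rpm in muscle, against 6.43, 10.4 and 6.25 rpm in proliferating myoblasts (log2 change −3.82, SE 0.62, edgeR adjusted p = 0.0120). The IAPEY3_LTR fragment chr15:8164882-8165025, in an intron of 2410089E03Rik, had 0.0925, 0.111 and 0.0995 rpm in muscle, which is 3 reads, against 2.26, 1.45 and 2.47 rpm in proliferating myoblasts. It was 20.3-fold lower with a 95% interval from counting of 6.61 to 101 (edgeR adjusted p = 0.0128).

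Among the higher members, the IAP-d-int fragment chr12:19841782-19842183 had 318, 283 and 330 rpm in muscle, against 37.8, 111 and 95.1 rpm in proliferating myoblasts (log2 change 2.53, SE 0.47, edgeR adjusted p = 0.0121). Passage 0 myoblasts, with 243 and 321 rpm, and both precursor libraries, with 266 rpm after injury and 304 rpm freshly isolated, stood beside muscle rather than beside the later passages. The IAPEY_LTR fragment chr5:79131570-79131904 showed the same order, with 70.9, 77.2 and 80.4 rpm in muscle, against 14, 27.8 and 16.1 rpm in proliferating myoblasts (log2 change 2.55, SE 0.47, edgeR adjusted p = 0.0120), and 51.7 and 67.9 rpm in passage 0 myoblasts. Culture 27 at day 1 of differentiation was at 76.7 rpm there, while cultures 21 and 26 at day 1 were at 11.7 and 9.66 rpm. The IAPEz-int fragment chr13:75966499-75966676 had 12, 10.8 and 10.6 rpm in muscle, against 2.99, 3.00 and 2.60 rpm in proliferating myoblasts (log2 change 2.48, SE 0.53, edgeR adjusted p = 0.0136). The IAPEY3_LTR fragment chr14:27653425-27653911, in an intron of the axonemal dynein gene Dnahc12, had 73.5, 58.0 and 116 rpm in muscle, against 11.9, 40.3 and 16.8 rpm in proliferating myoblasts (log2 change 2.41, SE 0.53, edgeR adjusted p = 0.0141).

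The fourth comparison follows differentiation, day 4 myotubes against the proliferating myoblasts of the same cultures. No IAP member was called of 279 tested, and 0 of 22438 fragments (0%) were called higher and 0 (0%) lower in the whole table. At an unadjusted p under 0.05 there were 0 IAP members higher and 0 lower, and 73 fragments higher and 10 lower in the whole table, and DESeq2 called 0 IAP members in either direction. The median log2 change of IAP members was 0.18, or −0.27 without culture 21 at day 4. The cultures did not move together. The chr10 IAPLTR4_I fragment had 658, 256 and 521 rpm at day 4 in cultures 21, 27 and 26, against 596, 483 and 388 rpm in proliferating myoblasts, so culture 27 was lower at day 4 and the other 2 were higher. With the culture as a replicate block, 0 IAP members and 39 fragments of the whole table were called higher.

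The fifth comparison sets proliferating myoblasts at passages 8 to 10 against passage 0. No IAP member was called of 281 tested, and the whole table had 0 of 23419 fragments (0%) called higher and 0 (0%) lower. At an unadjusted p under 0.05, 0 IAP members were higher and 17 lower, against 250 and 415 in the whole table, and DESeq2 called 0 IAP members. The labels give cultures 26 and 27 at both passages. A fit on those 4 libraries with the culture as a replicate block called 0 IAP members higher and 6 of 278 lower (2.16%), against 3.95% higher and 0.703% lower among all 22202 fragments tested in it, and it leaves 1 residual degree of freedom. The median log2 change was −0.51 for IAP members and 0.08 for all fragments. The median was 0.03 without culture 27 at passage 0, the library of the highest IAP level in the study, so it rests on that library. The IAPEY3_LTR fragment chr8:4944050-4944259 had 111, 133 and 109 rpm in proliferating myoblasts, against 174 and 198 rpm in passage 0 myoblasts, without overlap but short of the test (log2 change −0.92, SE 0.54, edgeR adjusted p = 0.978).

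A set near 0 in ES cells and present in every cultured sample was picked after its values were seen and is a description only. It holds the 12 members under 1 rpm in all 3 ES cell lines and at 5 rpm or more in all 14 samples of myoblasts and myotubes, 9 internal and 3 LTR. They are 4.40% of the 273 members that reached 5 rpm in some sample, beside 4.45% of such MaLR and ERVL fragments, 4.60% of those of other LTR elements, 2.93% of L1Md fragments and 2.60% of such fragments of any kind, so the share was close to that of other LTR repeats. The reverse, 5 rpm or more in all ES cell lines and under 1 rpm in all cultures, was rare everywhere, with 0 IAP members and 0.183% of fragments of any kind. The set includes the chr11 IAPEy-int, chr14 and chr17 IAPEz-int and chr7:70926384 IAPEY3_LTR fragments described above.

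The others are given by their ranges. Of these, the listed element covers 1.46% of the fragment at chr8:44042649, 9.05% of that at chr9:87244997 and 6.15% of that on chr18, and 10.3% to 100% of the rest. The IAPEY3-int fragment chr4:112156026-112156689 (664 bp) had 16.5 to 143 rpm in the cultures and at most 0.612 rpm in ES cells. The IAPEz-int fragment chr8:44042649-44043948 had 13 to 46.6 rpm in the cultures and at most 0.163 rpm in ES cells. The IAPEY3-int fragment chr9:87244997-87245206 had 10.7 to 57.9 rpm in the cultures and at most 0.119 rpm in ES cells. The IAPEy-int fragments chr3:139225481-139226741, in an intron of B930007M17Rik, and chr4:67023322-67024570 had 18.1 to 41.4 and 5.05 to 20.7 rpm in the cultures and at most 0.597 rpm each in ES cells. The IAPLTR3-int fragment at chr1:8112962 had 8.46 to 44.6 rpm in the cultures and at most 0.367 rpm in ES cells, and the IAPEY3_LTR fragment at chr4:92553917 had 8.85 to 44.1 rpm in the cultures and at most 0.530 rpm in ES cells. The IAPLTR2b fragment chr18:72891165-72892610 had 16.3 to 41.9 rpm in the cultures and at most 0.245 rpm in ES cells, and was among the LTR members called against ES cells in proliferating myoblasts (log2 change 7.70, SE 0.96, edgeR adjusted p = 0.000435).

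In muscle these 12 fragments had a median of 8.65 rpm in muscle 1 and 5.74 rpm in muscle 2, the libraries with a 129Sv/C57BL/6J label, and of 20.4 rpm in muscle 3, labelled C57BL/6J. Muscle 3 was the highest muscle library in 12 of 12. It was also the highest in 93.1% of the 216 IAP members with 5 rpm or more in a muscle library, in 84.9% of such fragments of other LTR elements, in 72.6% of L1Md fragments, in 63.3% of MaLR and ERVL fragments and in 56.6% of 11327 such fragments of any kind. The precursors, C57BL/6J too, had medians of 29.5 rpm after injury and 23.5 rpm freshly isolated. Strain thus moved with these values, and its part in them was not tested.

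**Figure D4:**
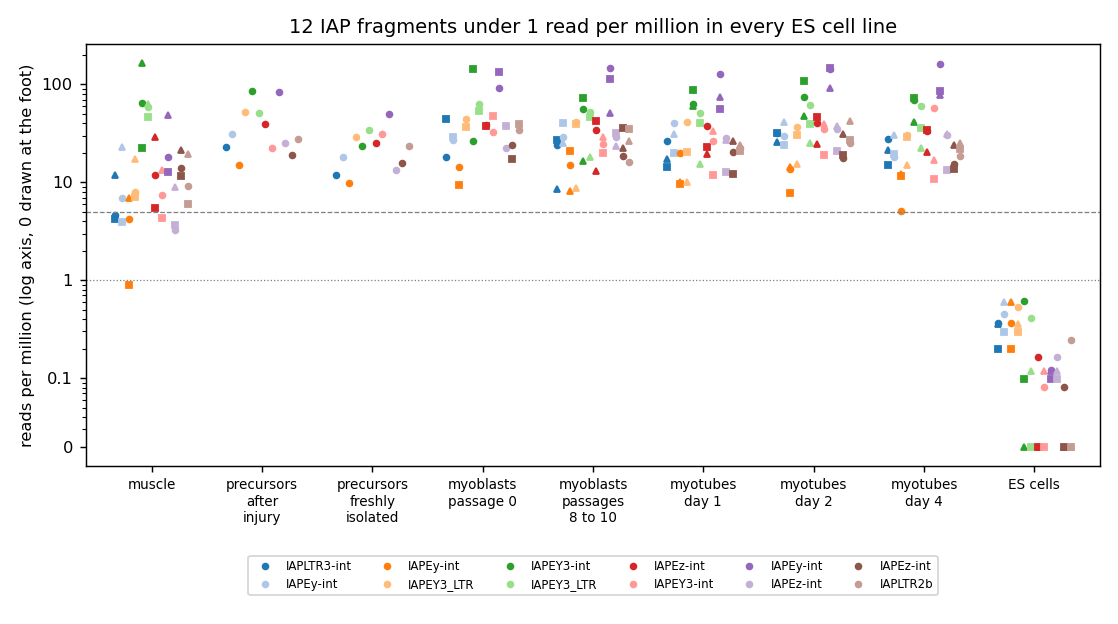
Level in rpm (log axis) of the 12 IAP fragments under 1 rpm in all ES cell lines and at 5 rpm or more in all cultured samples, in each of the 22 samples by group. The ES cell points lie between 0 and 0.612 rpm, and muscle 3 is above muscle 1 and muscle 2 in all 12.

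The calls were also counted by how much of the fragment the listed element covers. In the first 3 comparisons the share of higher members was smaller, and that of lower members larger, where it covers less than 10%, a difference that was not tested. Where it covers less than 10%, 9 members were higher and 3 lower of 91 tested between proliferating myoblasts and ES cells, with a median log2 change of 0.29, and where it covers more, 29 and 5 of 185 with a median of 0.62. Between muscle and ES cells these were 20 and 14 of 88, and 51 and 9 of 175. Between muscle and proliferating myoblasts they were 5 and 11 of 91, and 13 and 17 of 188. Members with a primer-binding-site end counted 5 higher and 0 lower of 32 tested between proliferating myoblasts and ES cells, and 8 higher and 3 lower of 30 between muscle and ES cells. Members without that end counted 33 and 8 of 244, and 63 and 20 of 233.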

How the data were processed

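The table used, as deposited by the authors, gives unnormalised read counts for each fragment in each library, beside repeat, CpG and length columns. Sequencing was on an Illumina GA2 according to the labels. Alignment to mm9, Bowtie 0.11.3 and DESeq (no version) appear in the submitters' processing notes. Read length, read filters and the treatment of reads that match several places are not given in the sources used here. The authors' scaled and comparison tables were not used. Fragment ends were checked against mm9, and 100% lie at a CCCGGG site.

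Tests used the quasi-likelihood fit of edgeR 4.0.16 after TMM scaling, for fragments kept by filterByExpr (minimum count 10). They were 2-sided, with Benjamini-Hochberg adjustment over every fragment of the table kept and a threshold of 0.05, on the samples of the 2 groups compared. DESeq2 1.42.0 in R 4.3.3 was an alternative. Where nothing says that samples are separate animals or cultures, p-values measure only the spread between them. Intervals (95%) and the floor of 3 reads over a group cover counting error only, since PCR reads are not independent molecules. The fits were tested on simulated data. The members, lists and named fragments were chosen with earlier results of these data known. Named are the 3 internal and 3 LTR members of highest mean level, and per comparison, part and direction the 2 non-overlapping called members of smallest p, plus any within 5000 bp of Cdk5rap1. Further fragments, such as the 210-bp copies and the set near 0 in ES cells, were chosen after their values were seen. Day 4 myotubes and proliferating myoblasts share cultures 21, 27 and 26, whose deviations correlated (r 0.852, 0.652 and 0.699), so the block is given there. Sequences come from the mm9 genome and gene contexts from GENCODE M1. Python 3.11.15, numpy 2.4.6, pandas 2.3.3, pysam 0.24.0 and matplotlib 3.10.9 were used.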

Additional observations from a re-analysis of the deposited data

How the results depend on the processing

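Of 249 alternative values for counts, medians and summed levels, 187 stayed near the main value. Counts had to be within 1.5 times and medians within the spread between replicates. Summed levels had to be within 1 SD, or within counting error for groups of 1 library. Of 393 values for parts and single fragments, 317 were kept. Parts followed the rule for summed levels, and single fragments had to keep their direction and an adjusted p under 0.05. No called value turned its direction. Between proliferating myoblasts and ES cells, the 8 lower members became 4 with DESeq2's size factors, 5 with library totals, 4 without a filter on low counts, 3 with fragments of 21 bp to under 2000 bp only and 3 with all groups in one fit. With members that share an end sequence left out, 10 were higher and 0 lower, among fewer members tested. Leaving out 1 sample gave 34 to 45 higher, 1 to 9 lower and medians of 0.48 to 0.82. Between muscle and ES cells, library totals gave 42 higher, 61 lower and a median of −0.69, fragments of 21 bp to under 2000 bp gave 41 lower and −0.36, shared ends left out gave 18 and 6, and one fit gave 14 lower. Leaving out 1 sample gave 57 to 91 higher, 12 to 57 lower and medians of −0.22 to 0.54. Between muscle and proliferating myoblasts, DESeq2 gave 29 higher and 47 lower, library totals 8 higher, no filter 10 lower, and shared ends left out 3 and 8. Leaving out 1 sample gave 0 to 26 higher, 0 to 49 lower and medians of −0.69 to −0.13. The median between day 4 myotubes and proliferating myoblasts was −0.14 with library totals and −0.27 to 0.32 with 1 sample left out. Between proliferating and passage 0 myoblasts, 1 member was higher without a filter, and leaving out 1 sample gave medians of −0.81 to 0.03. The cause of these moves was not tested where the setting itself does not show it.

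A replicate block by number gave 39 higher and 8 lower members between proliferating myoblasts and ES cells, 71 and 29 between muscle and ES cells, and 3 and 2 between muscle and proliferating myoblasts. These samples share only a number: deviations of same-numbered samples correlated at 0.351, 0.157 and 0.028, at 0.144, 0.097 and 0.129, and at −0.225, 0.146 and −0.409 in the 3 comparisons. Each muscle sample correlated best with the ES cell line of its own number, a hint from the data and not from the design. Cultures 26 and 27 are in both passage groups by their titles, with r of 0.441 and −0.044, and the block on them gave 0 higher and 6 lower members of 278 (2.16%, against 0.703% of all fragments lower). The block changed no IAP call of day 4 myotubes, while 39 fragments of the whole table were called higher with it and 0 without it.

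With shared-end fragments left out, the summed IAP level was 3174 rpm in muscle, 4689 and 4113 in precursors after injury and freshly isolated, 5568 in passage 0 and 4091 in proliferating myoblasts, 3936, 4840 and 4181 in day 1, 2 and 4 myotubes, and 3042 in ES cells. Scaled to the reads of fragments under the same limits in place of the library total it was 14697 and 12840 in those precursors, 15022 in day 2 myotubes and 10658 in ES cells. With 200 bp or longer only the precursors had 13025 and 11202 rpm, and without the top fragment 13015 and 11225 rpm. The 448 members with fewer than 23 reads over the 23 libraries passed the filter on low counts in no comparison and were not tested there.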
